A study of Gallus gallus with 10 samples.

Results

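Bone morphogenetic proteins (BMPs) are secreted dimers of the TGF-beta superfamily that bind pairs of type I and type II receptor kinases at the cell surface. The type I receptor phosphorylates receptor SMADs, which enter the nucleus with SMAD4 and switch on genes such as the ID repressors, while secreted antagonists hold the ligands away from their receptors. In the vertebrate optic cup BMP4 is made dorsally and sets dorsal identity, and the antagonist CHRDL1, known in the chick as ventroptin, is made ventrally.

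The 10 genes described here are 4 ligands (BMP2, BMP4, BMP7 and GDF6), 3 type I receptors (BMPR1A, BMPR1B and ACVR1), the type II receptor BMPR2 and 2 secreted antagonists (CHRDL1 and FSTL1). They were chosen by name as members of the pathway, with earlier results of these data known. All 10 are among the 12464 genes of the deposited table. The table holds the retinas of 5 wild-type Dekalb white chicken embryos. The operated retinas came from eyes whose lens had been taken out at Hamburger and Hamilton stage 23 (about embryonic day 4), and the control retinas came from the other eye of the same embryos, which kept its lens; both were dissected 6 h after the operation. The operated eye also had a slit cut in its dorsal side, so loss of the lens and opening of the eye cannot be told apart, and the libraries used here include no eye that was opened but kept its lens.

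Values are normalised read counts, and after the authors' scaling the library totals lay between 979286 and 1033235. The spacing of the low values placed the effective library sizes between 18671000 and 26005000 reads, so that 1 read was worth 0.0385 to 0.0536 units. Of the neural retina markers 6 of 7 were in the table, with summed levels of 1162 to 1353 in operated and 1009 to 1355 in control libraries. Pigment epithelium markers (11 of 14) summed to 126 to 222 in operated and 109 to 529 in control libraries. Periocular mesenchyme markers (10 of 15) summed to 234 to 315 in operated and 205 to 376 in control libraries. Red cell markers (5 of 10) summed to 111 to 319 in operated and 30.03 to 378 in control libraries. Lens markers (3 of 12) summed to 90.8 to 153 in operated and 75.2 to 121 in control libraries; this sum was higher in the operated retina in 5 of 5 embryos, the 1 lens marker above the filter was called higher (log2 change 0.32), and the part of the lens markers in the results below was not tested. Endothelial markers (7 of 7) summed to 55.9 to 85.4 in operated and 55.9 to 113 in control libraries, and surface ectoderm markers (4 of 8) to 24.9 to 32.9 in operated and 27.4 to 46.5 in control libraries. None of these markers was listed at 0 in any library. Without a filter on low values, the median log2 change was 0.23 for neural retina markers (2 called higher, 1 lower). It was -0.50 for pigment (0 higher, 5 lower) and -0.41 for mesenchyme markers (1 higher, 3 lower). It was 1.35 for red cell (0 called), 0.24 for lens (1 higher), -0.35 for endothelial (3 lower) and -0.01 for surface ectoderm markers (1 lower). Over all 12464 genes 11.5% were called higher and 10.1% lower. The control of embryo 5 stood apart, with the highest sums of pigment, mesenchyme and red cell markers among all 10 libraries.

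**Figure D1:**
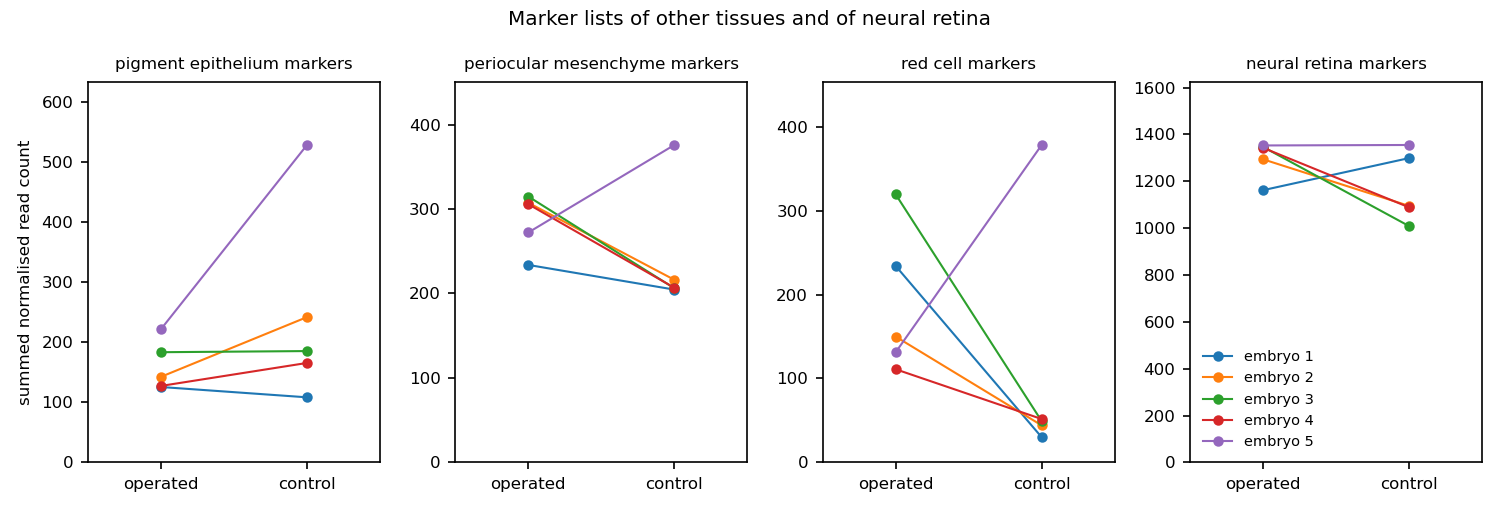
Summed normalised read counts of 4 marker lists in each operated and control retina, with a line joining both eyes of an embryo. In embryo 5 the pigment sum was 222 in the operated and 529 in the control retina, and the red cell sum 131 in the operated and 378 in the control retina, whereas red cell sums were higher in the operated retina in the other 4 embryos.

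At 6 h the antagonist CHRDL1 and the type I receptor BMPR1B were higher in operated than in control retinas, while BMP4, BMP7, BMPR1A, BMPR2, ACVR1 and FSTL1 did not pass the test. CHRDL1 averaged 353 ± 45.02 in operated and 267 ± 45.4 in control retinas, and BMPR1B 40.3 ± 3.6 in operated and 33.99 ± 2.64 in control retinas (SD, n = 5 each). BMP2 and GDF6 lie below the mean of 10 that the test required. Fitted together with all 12464 genes, they were higher as well, but GDF6 only at the threshold. The call of GDF6 was kept in 2 of 14 other settings and that of BMP2 in 13 of 14. BMP2 averaged 7.79 ± 1.59 in operated and 3.96 ± 0.565 in control retinas, the widest fold difference of the 10 genes. Changes were tested as log2(value + 1) within embryos with limma, a moderated linear model with the embryo as a block, adjusted over all tested genes with a threshold of 0.05; a change on this scale understates that of genes of low level.

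In the filtered fit, 2 of 8 members were called higher and 0 lower by limma, and at an unadjusted p under 0.05 the counts were also 2 and 0. Over all 9076 genes tested, 22.9% were called in either direction, 10.6% higher and 12.3% lower. Without the filter 4 of 10 were called higher and 0 lower, against 11.5% higher and 10.1% lower of 12464 genes, where 21.6% were called in either direction, and at an unadjusted p under 0.05 the counts were 5 and 0. With the mean level of the pigment, mesenchyme or red cell markers as a covariate, 0 of the 8 were called by limma, with 1, 2 and 2 higher at an unadjusted p under 0.05; over all genes these fits called 100, 216 and 414 higher and 16, 86 and 314 lower. The operated value was above the control value in all 5 embryos for 3 of the 8 genes (CHRDL1, BMPR1B and BMPR2) and for 5 of all 10, against 14.7% of the 9076 and 16.3% of the 12464 genes. It was below the control value in all 5 embryos for 0 of the 10, against 17.2% and 14.6%. Operated and control groups did not overlap for 0 of the 8 genes, against 6.41% of the 9076 with the operated group above and 7.27% with it below, and for 2 of all 10 (BMP2 and GDF6), against 6.84% and 5.9% of the 12464. The median log2 change was 0.060 over the 8 genes and -0.001 over the 9076. Without the filter the medians were 0.113 over the 10 genes and 0.017 over the 12464.

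**Figure D2:**
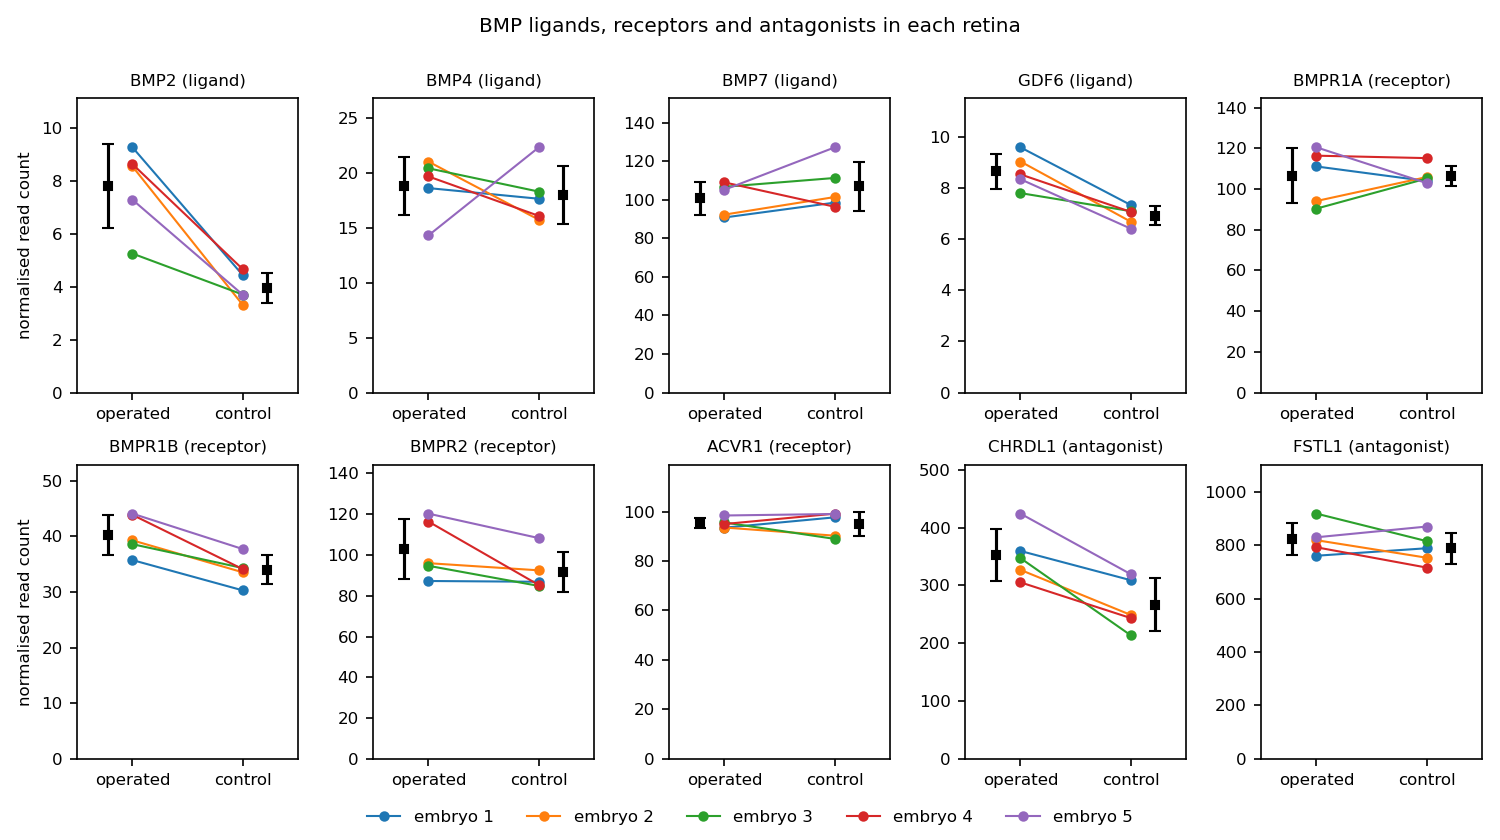
Normalised read count of each of the 10 genes in operated and control retinas, each axis starting at 0. Coloured lines join both eyes of an embryo and black squares give mean ± SD of 5 retinas; all 5 lines are higher at the operated end for BMP2, GDF6, BMPR1B, BMPR2 and CHRDL1.

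BMP2, a ligand that also acts in cartilage and heart formation, had values of 9.26, 8.54, 5.25, 8.63 and 7.28 in the operated retinas of embryos 1 to 5, against 4.43, 3.31, 3.70, 4.66 and 3.69 in their control retinas. Every operated value lay above every control value, the lowest operated one being that of embryo 3. In the fit without the filter the log2 change was 0.81 (SE 0.12, adjusted p = 0.00199), a 1.76-fold difference on the log2(value + 1) scale with a 95% interval of 1.46 to 2.11. In the RefSeq annotation of GRCg7b the span of BMP2 overlaps 6 other genes, among them FERMT1, LRRN4, CCT4 and FAM161A of this table. Spans rather than exons were compared, so whether any reads were shared was not tested. In 10 of 10 libraries the value of BMP2 was a whole number of reads within 0.05 of a read. These values rest on 125 to 219 reads in operated and 86 to 106 reads in control libraries. The exact 95% Poisson intervals of the 2 eyes, which cover counting error only, were apart in embryos 1, 2, 4 and 5 and overlapped in embryo 3 (4.37 to 6.25 in the operated and 2.97 to 4.56 in the control retina).

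GDF6, a ligand of the dorsal retina whose loss disturbs eye formation in several vertebrates, had 9.60, 9.05, 7.81, 8.54 and 8.36 in operated retinas, against 7.34, 6.69, 7.10, 7.07 and 6.42 in control retinas. Operated and control values did not overlap, but the distance between the groups was small: the lowest operated value was 7.81 and the highest control value 7.34. The log2 change without the filter was 0.29 (SE 0.090, adjusted p = 0.0498, fold 1.22 with a 95% interval of 1.06 to 1.40). GDF6 rested on 153 to 232 reads a library, and the counting intervals of the 2 eyes were apart in embryo 2 alone. The call lies at the threshold and was kept in 2 of 14 other settings, with adjusted p of 0.0414 to 0.47; it ended without each embryo in turn (0.0669 to 0.176).

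**Figure D3:**
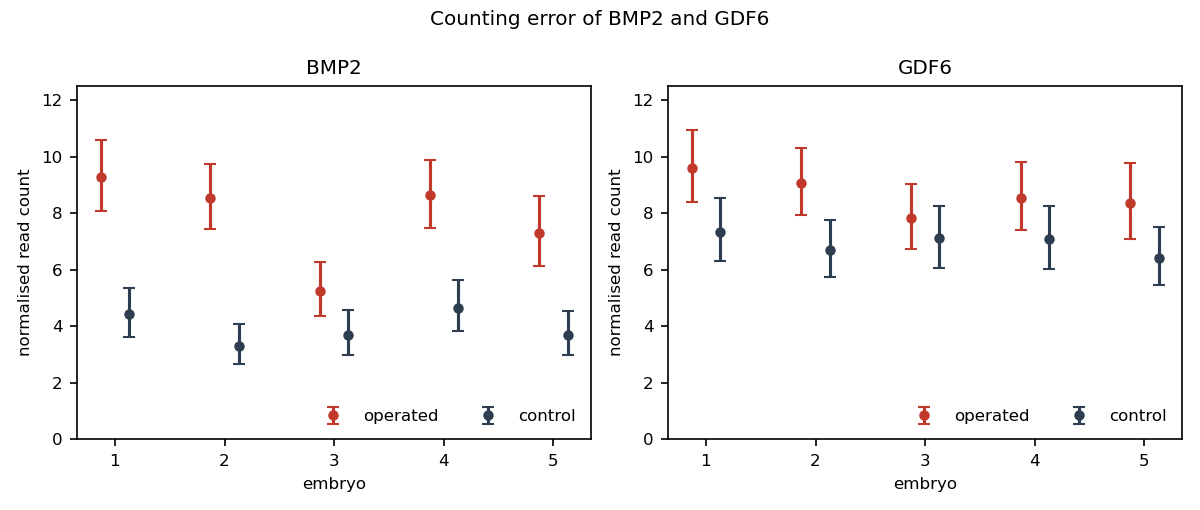
Normalised read counts of BMP2 and GDF6 in both eyes of each embryo, with exact 95% Poisson intervals of the reads behind each value as bars. For BMP2 the intervals of the 2 eyes are apart in 4 of 5 embryos, and for GDF6 in 1 of 5.

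BMP4, the main dorsal ligand of the early retina, had 18.6, 21.02, 20.4, 19.7 and 14.3 in operated retinas, against 17.6, 15.7, 18.3, 16.1 and 22.3 in control retinas. The groups overlapped, with the operated value above the control in embryos 1 to 4 and below it in embryo 5, which held both the lowest operated and the highest control value. The log2 change over 5 embryos was 0.06 (SE 0.14, adjusted p = 0.786), with a 95% interval of the fold from 0.841 to 1.29. Without embryo 5 the log2 change was 0.22 (SE 0.089, adjusted p = 0.117). The within-embryo log2 change of BMP4 had an SD of 0.39, the highest of the 10 genes, against a median of 0.17 over the tested genes.

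In embryo 5, where BMP4 was lower in the operated retina (log2 change -0.61), the mean log2 change of the pigment markers was -1.20, of the mesenchyme markers -1.03 and of the red cell markers -1.42. In embryos 1 to 4 the pigment markers changed by -0.84 to 0.16, the mesenchyme markers by -0.36 to 0.24 and the red cell markers by 1.10 to 2.69. The mesenchyme list's mean log2 change was negative in embryos 2, 3 and 4 although its summed level was higher in their operated retinas. With the mean level of the pigment markers as a covariate the log2 change of BMP4 was 0.25 (SE 0.21), with that of the mesenchyme markers 0.26 (SE 0.16) and with that of the red cell markers -0.18 (SE 0.14), none of which passed. In whole retinas, a change in the number of cells of a type and a change in RNA per cell cannot be told apart.

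BMP7, a ligand needed for lens formation in the mouse, had 90.9, 92.4, 106.8, 109.1 and 105.3 in operated retinas, against 98.6, 101.5, 111.4, 96.4 and 127.3 in control retinas. The ranges overlapped: the operated value was lower in 4 embryos and higher in embryo 4. The log2 change was -0.08 (SE 0.070, adjusted p = 0.432), and the 95% interval of the fold ran from 0.846 to 1.06. As for BMP4, the highest control value was that of embryo 5.

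**Figure D4:**
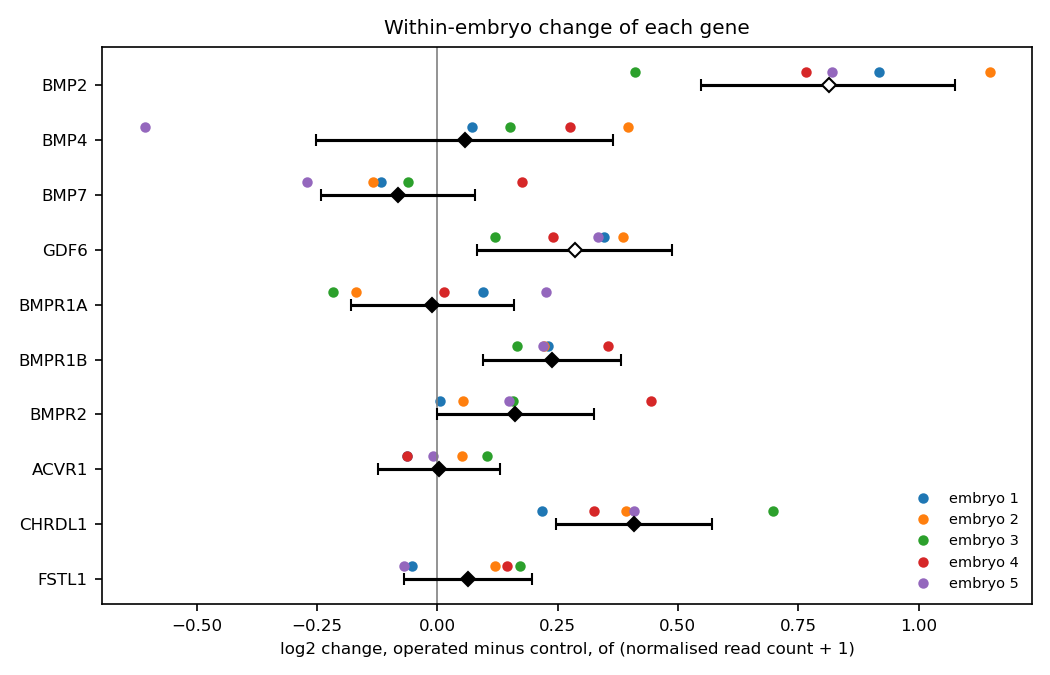
Log2 change of (normalised read count + 1), operated minus control, for each gene. Coloured points are the 5 embryos and diamonds the fitted change with its 95% interval, open for BMP2 and GDF6, which come from the fit without the filter. Intervals of BMP2, GDF6, BMPR1B and CHRDL1 lie above 0, and the point of embryo 5 stands at -0.61 for BMP4.

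Among the receptors BMPR1B passed. BMPR1B, a type I receptor found ventrally in the mouse retina, had 35.7, 39.3, 38.6, 43.9 and 44.1 in operated retinas, against 30.3, 33.5, 34.3, 34.1 and 37.7 in control retinas. The ranges of the groups overlapped, since embryo 1 was low and embryo 5 high in both eyes, but the operated value was the higher one in each embryo. The log2 change was 0.24 (SE 0.063, adjusted p = 0.0269, fold 1.18 with a 95% interval of 1.07 to 1.30), and its SD over embryos was 0.07. The call ended with no replicate block (adjusted p = 0.0636) and with quantile normalisation (0.0503). It also ended without embryo 2, 4 or 5 (0.101, 0.13 and 0.0529), with log2 changes of 0.21 to 0.26 over all 15 other settings. With the pigment, mesenchyme and red cell covariates the log2 change was 0.24, 0.24 and 0.25 (adjusted p = 0.366, 0.18 and 0.116).

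BMPR1A, the widely expressed type I receptor, had 111.1, 94.1, 90.4, 116.4 and 120.5 in operated retinas, against 103.9, 105.9, 105.2, 115.2 and 102.9 in control retinas. Operated values lay on both sides of the control values, higher in embryos 1, 4 and 5 and lower in embryos 2 and 3. The log2 change was -0.01 (SE 0.075, adjusted p = 0.938; 95% interval of the fold 0.883 to 1.12). The SD of the log2 values was 0.19 among operated and 0.064 among control retinas, a difference in spread that was not tested.

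BMPR2, the type II receptor that pairs with all 3 type I receptors, had 87.3, 95.99, 94.7, 116.4 and 120.3 in operated retinas, against 86.9, 92.5, 84.8, 85.3 and 108.3 in control retinas. The groups overlapped, and although the operated value was the higher in all 5 embryos, that of embryo 1 was so by 0.006 on the log2 scale only. The log2 change of 0.16 (SE 0.072, adjusted p = 0.136) did not pass, and its 95% interval in folds was 0.999 to 1.25. Embryo 4 had the greatest difference (log2 change 0.45), and without it the estimate was 0.09.

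ACVR1, a type I receptor that BMP7 uses, had 93.48, 93.55, 95.6, 94.96 and 98.4 in operated retinas, against 97.7, 90.2, 88.9, 99.2 and 99.02 in control retinas. It was the steadiest of the 10 genes among operated retinas, with an SD of 0.03 on the log2 scale. The log2 change was 0.004 (SE 0.056, adjusted p = 0.968), with a 95% interval of the fold from 0.919 to 1.09. In 7 of 10 libraries its value was not a whole number of reads within 0.05 of a read, so part of its reads had been counted in fractions. By the same measure FSTL1 was whole in 7 of 10 libraries, BMPR1A and BMPR1B in 9 each, and the other genes in all 10. The span of ACVR1 overlaps UPP2 and ACVR1C in the RefSeq annotation of GRCg7b.

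Among the antagonists CHRDL1 passed. CHRDL1, a chordin relative that binds BMPs outside the cell, had 359.6, 326.9, 347.2, 305.3 and 424.2 in operated retinas, against 309.0, 248.9, 213.6, 243.5 and 319.4 in control retinas. The ranges overlapped because embryos 1 and 5 were high in their controls too, yet each operated retina exceeded its own control, by 1.16-fold in embryo 1 to 1.63-fold in embryo 3. The log2 change was 0.41 (SE 0.071, adjusted p = 0.00559, fold 1.33 with a 95% interval of 1.19 to 1.48). The exact counting intervals of the 2 eyes, at 5082 to 8424 reads, were apart in 5 of 5 embryos. The call held in 13 of 16 other settings, among them no replicate block (adjusted p = 0.0372) and each embryo left out (0.0034 to 0.0308).

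The call of CHRDL1 ended in the 3 fits with a marker covariate. Its log2 change was 0.37 (SE 0.12, adjusted p = 0.223) with the pigment markers, 0.37 (SE 0.10, adjusted p = 0.0977) with the mesenchyme markers and 0.40 (SE 0.10, adjusted p = 0.0587) with the red cell markers. In fits of all genes, BMP2 had a log2 change of 0.76 (SE 0.19, adjusted p = 0.106) with the pigment covariate, which ended its call, and it passed with the other two.

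FSTL1, a secreted follistatin relative known in the mouse to bind BMP4, had 760.1, 818.3, 917.7, 791.7 and 829.2 in operated retinas, against 788.2, 752.6, 814.7, 715.7 and 869.4 in control retinas. Its values overlapped and moved both ways, up in embryos 2, 3 and 4 and down in embryos 1 and 5. The log2 change was 0.06 (SE 0.059, adjusted p = 0.465), with a 95% interval of the fold from 0.953 to 1.15. Counting error was small here, at 15482 to 21851 reads a library, and the intervals of the 2 eyes were apart in 5 of 5 embryos, in both directions.

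Within each role the log2 changes of all 13 pairs of genes were compared embryo by embryo. Their difference had the same sign in all 5 embryos for 7 pairs. The exact two-sided sign-flip test over 5 embryos cannot go below p = 0.0625, which these 7 pairs had (adjusted p = 0.116), so no pair could pass. The change of BMP2 exceeded that of BMP4 by 0.76 ± 0.44, that of BMP7 by 0.89 ± 0.35 and that of GDF6 by 0.53 ± 0.17 (SD, n = 5). The change of CHRDL1 exceeded that of FSTL1 by 0.35 ± 0.15, and that of BMPR1B exceeded that of ACVR1 by 0.23 ± 0.13. For BMPR1A minus BMPR1B the difference was -0.25 ± 0.18, negative in 4 of 5 embryos (exact p = 0.125, adjusted p = 0.203).

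For BMPR1B and CHRDL1, other genes that carry a gene symbol and average 20 or more were ranked by the root mean square difference of their 5 within-embryo log2 changes. Nearest to BMPR1B among 7343 genes were SIPA1L1, which encodes a regulator of Rap GTPases (0.0292), GSN, which encodes the actin-severing protein gelsolin (0.0362), and SMARCA2, an ATPase of a chromatin remodelling complex (0.0379); the median over all genes was 0.338. Nearest to CHRDL1 were the ubiquitin ligase gene TRAF7 (0.0886), the small GTPase gene RHOF (0.0944) and DISP3 (0.0984), with a median of 0.489. These are descriptions over 5 embryos without a test.

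Of 86 other pathway genes, listed by role, 58 were in the table and 40 reached the filter. Of these 40, 10 were called higher and 4 lower, and 26 did not pass, with a median log2 change of 0.141. The share of all 9076 genes called was 10.6% higher and 12.3% lower, and their median was -0.001. Without the filter, 14 of 58 were higher and 6 lower, against 11.5% higher and 10.1% lower of all 12464 genes. With quantile normalisation 7 of the 40 were higher and 4 lower, against 858 higher and 1068 lower of all 9076 genes. The calls of ACVR2B (adjusted p = 0.0823), SKIL (0.0757) and SMAD9 (0.0775) ended in that setting.

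Of the 2 other ligands tested, 0 rose and 1 fell, against 10.6% higher and 12.3% lower of all 9076 genes. BMP5, a relative of BMP7, had 15.2, 8.62, 10.4, 12.7 and 12.8 in operated retinas, against 15.6, 14.8, 15.9, 16.96 and 17.2 in control retinas. Embryo 1 alone brought the groups to overlap, and the log2 change was -0.42 (adjusted p = 0.0233). The call ended without embryo 2, 3, 4 or 5 (adjusted p = 0.0502 to 0.099, log2 change -0.43 to -0.35) and with each covariate (0.107 to 0.525, log2 change -0.45 to -0.26). Below the mean of 10, and named after their values were seen, GDF11 rose and BMP6 fell in the fit of all genes. GDF11, a ligand that signals mainly through activin receptors, had 8.32, 15.7, 14.4, 14.2 and 13.5 in operated retinas, against 5.02, 2.81, 2.69, 2.77 and 4.203 in control retinas. These did not overlap, and the log2 change was 1.66 (adjusted p = 0.000796; with the pigment covariate 1.32 and 0.0776). BMP6 averaged 3.61 ± 0.532 in operated and 7.60 ± 4.63 in control retinas (log2 change -0.76, adjusted p = 0.030, and 0.0837 with no replicate block). Its adjusted p was 0.088 without embryo 2 and 0.0968 without embryo 4, and its log2 change -0.49 without embryo 5. With the pigment covariate it was -0.13 (adjusted p = 0.816) and with the mesenchyme covariate -0.29 (adjusted p = 0.344), whereas with the red cell covariate it was -1.27 and passed (adjusted p = 0.00251).

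Among 7 other receptors and co-receptors, 2 rose, 0 fell and 5 did not pass, against 10.6% higher and 12.3% lower of all 9076 genes. The type II receptor ACVR2B averaged 24.4 ± 4.04 in operated and 19.8 ± 1.69 in control retinas (log2 change 0.28, adjusted p = 0.0332, and 0.112 with no replicate block). BAMBI, a receptor without a kinase domain that dampens BMP and TGF-beta signalling, averaged 181 ± 24.9 in operated and 154 ± 17.9 in control retinas (log2 change 0.23, adjusted p = 0.0392, and 0.169 with no replicate block). For BAMBI the operated value was higher in 4 of 5 embryos. The call of ACVR2B ended without embryo 2, 3, 4 or 5 (adjusted p = 0.0847 to 0.117) and that of BAMBI without embryo 1, 2, 4 or 5 (0.0658 to 0.159). Neither passed with a covariate. With the pigment, mesenchyme and red cell covariates the log2 change of BAMBI was 0.26, 0.26 and 0.24 (SE 0.11, 0.096 and 0.097), and that of ACVR2B 0.17, 0.19 and 0.34 (SE 0.12, 0.097 and 0.10).

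Of 9 other secreted antagonists and modulators, 2 rose, 2 fell and 5 did not pass. Over all 9076 genes 10.6% were called higher and 12.3% lower. SMOC1, a matrix-associated protein that inhibits BMP signalling in the frog, had 149.1, 158.1, 214.4, 251.4 and 183.7 in operated retinas, against 94.8, 92.2, 112.3, 128.0 and 104.3 in control retinas. The groups were apart, and the log2 change of 0.82 (SE 0.063, adjusted p = 0.000155) was called in all 16 other settings. FSTL4, a follistatin relative, averaged 20.4 ± 9.20 in operated and 9.76 ± 3.15 in control retinas (log2 change 0.94, adjusted p = 0.00148). FBN2, a fibrillin of microfibrils that hold BMP complexes, averaged 18.5 ± 8.22 in operated and 36.4 ± 14.5 in control retinas (log2 change -0.95, adjusted p = 0.000994, and 0.077 with no replicate block). CRIM1, a membrane protein that binds BMPs, averaged 11.7 ± 0.843 in operated and 15.5 ± 2.22 in control retinas (log2 change -0.37, adjusted p = 0.0335). The call of CRIM1 ended without embryo 1, 2, 4 or 5 (adjusted p = 0.0582 to 0.107). FBN2 still passed with the mesenchyme covariate (log2 change -0.75, adjusted p = 0.0173) but did not in the pigment fit (-0.69, adjusted p = 0.0802). In the pigment fit FSTL4 missed the threshold too (0.77, adjusted p = 0.116). CRIM1 passed with the red cell covariate (0.0491) and with neither of the others (0.485 and 0.29). BMPER and SMOC2 lay below the filter and were named after their values were seen. In the limma fit of all genes BMPER rose (log2 change 0.88, adjusted p = 0.0104) and SMOC2 fell (-0.61, adjusted p = 0.0399). Both calls ended with no replicate block and with each covariate. That of SMOC2 also ended without embryo 2, 3, 4 or 5 and with a pseudocount of 5.

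Of 14 SMAD transducers and regulators, 5 rose, 0 fell and 9 did not pass, against 10.6% higher and 12.3% lower of all 9076 genes. PPM1A, a phosphatase that can act on SMADs, averaged 163.5 ± 9.73 in operated and 130.4 ± 6.99 in control retinas (log2 change 0.32, adjusted p = 0.00552), and the receptor SMAD gene SMAD5 178.5 ± 9.93 in operated and 149 ± 8.44 in control retinas (log2 change 0.26, adjusted p = 0.0187). The groups were apart for both, for SKIL, and for SMURF1, which was not called and was named after its values were seen. Of all 9076 genes 6.41% had the operated group wholly above the control group. The SMAD repressors SKI and SKIL averaged 42.8 ± 8.38 and 32.1 ± 1.70 in operated retinas, against 29.2 ± 5.75 and 26.7 ± 1.797 in control retinas (adjusted p = 0.0187 and 0.028). SMAD9, the fifth that rose, also stands among the response genes. The calls of SKI (without embryo 2 or 4, adjusted p = 0.0585 and 0.0858), SMAD5 (without 2, 4 or 5, 0.0551 to 0.0988) and SKIL (without 2, 3, 4 or 5, 0.0536 to 0.119) ended, while that of PPM1A held in each case. With the pigment covariate none of these 4 passed (0.247 to 0.446), at log2 changes of 0.27 for PPM1A, 0.44 for SKI, 0.19 for SMAD5 and 0.32 for SKIL. With the mesenchyme covariate none passed either (0.093 to 0.227), at 0.29, 0.45, 0.19 and 0.28 in the same order of genes. With the red cell covariate PPM1A (0.36, adjusted p = 0.034) and SMAD5 (0.34, adjusted p = 0.0384) passed, while SKI (0.55, adjusted p = 0.11) and SKIL (0.26, adjusted p = 0.134) did not. SMAD4, the shared partner of the receptor SMADs, was below the filter, with 2.98 ± 0.403 in operated and 1.80 ± 0.322 in control retinas. It was higher in the limma fit of all genes (log2 change 0.51, adjusted p = 0.0194). SMAD4 was named after its values were seen, and its call ended without embryo 2 or 5 and with each covariate. TOB1, also below the filter and named after its values were seen, was higher in that fit (log2 change 0.32, adjusted p = 0.0401). The call of TOB1 ended without embryo 2, 3 or 4, with quantile normalisation, with no replicate block and with each covariate.

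The list of BMP response genes had 12 tested members, of which 3 were higher, 1 lower and 8 did not pass. Over all 9076 genes 10.6% were called higher and 12.3% lower. SMAD9, which is both a transducer and a target, averaged 16.1 ± 1.80 in operated and 12.3 ± 1.66 in control retinas (log2 change 0.36, adjusted p = 0.0381). TBX3, a T-box factor of the dorsal retina, averaged 52.8 ± 7.46 in operated and 37.8 ± 4.76 in control retinas (log2 change 0.47, adjusted p = 0.0291), higher in 4 of 5 embryos. ATOH8, a basic helix-loop-helix factor, fell, with 32.7 ± 4.10 in operated and 44.4 ± 3.38 in control retinas (log2 change -0.44, adjusted p = 0.006), and its groups did not overlap. BAMBI, given above, is the third of this list that rose. The calls of SMAD9 (without embryo 2, 3 or 4, adjusted p = 0.102 to 0.149) and TBX3 (without embryo 2, 3, 4 or 5, 0.0583 to 0.129) ended, and with the covariates SMAD9 (0.214 to 0.476), TBX3 (0.134 to 0.57) and ATOH8 (0.0505 to 0.0975) did not pass. In the pigment, mesenchyme and red cell fits the log2 change was 0.30, 0.35 and 0.30 for SMAD9, 0.28, 0.35 and 0.49 for TBX3, and -0.54, -0.50 and -0.34 for ATOH8. Of the ID repressors, direct targets of receptor SMADs and named here for that role after their values were seen, ID1 to ID3 did not pass. ID1 averaged 10.45 ± 1.47 in operated and 12.4 ± 3.27 in control retinas (log2 change -0.20, adjusted p = 0.19). ID2 averaged 94.7 ± 5.25 in operated and 100.6 ± 10.3 in control retinas (log2 change -0.08, adjusted p = 0.382). ID3 averaged 110.1 ± 11.4 in operated and 98.7 ± 9.64 in control retinas (log2 change 0.16, adjusted p = 0.256). ID4, below the filter, did not pass in the limma fit of all genes (log2 change 0.06, adjusted p = 0.712). SMAD6 and SMAD7 of this list, also named after their values were seen, did not pass. SMAD6 averaged 14.1 ± 1.67 in operated and 10.85 ± 1.89 in control retinas (log2 change 0.36, adjusted p = 0.0536). Its operated value was higher in 5 of 5 embryos. For SMAD7 the log2 change was -0.06 (adjusted p = 0.729). TBX2 and TBX5, the other T-box genes of this list, were also named after their values were seen. Neither passed by limma (log2 change 0.11 and 0.23, adjusted p = 0.531 and 0.201).

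**Figure D5:**
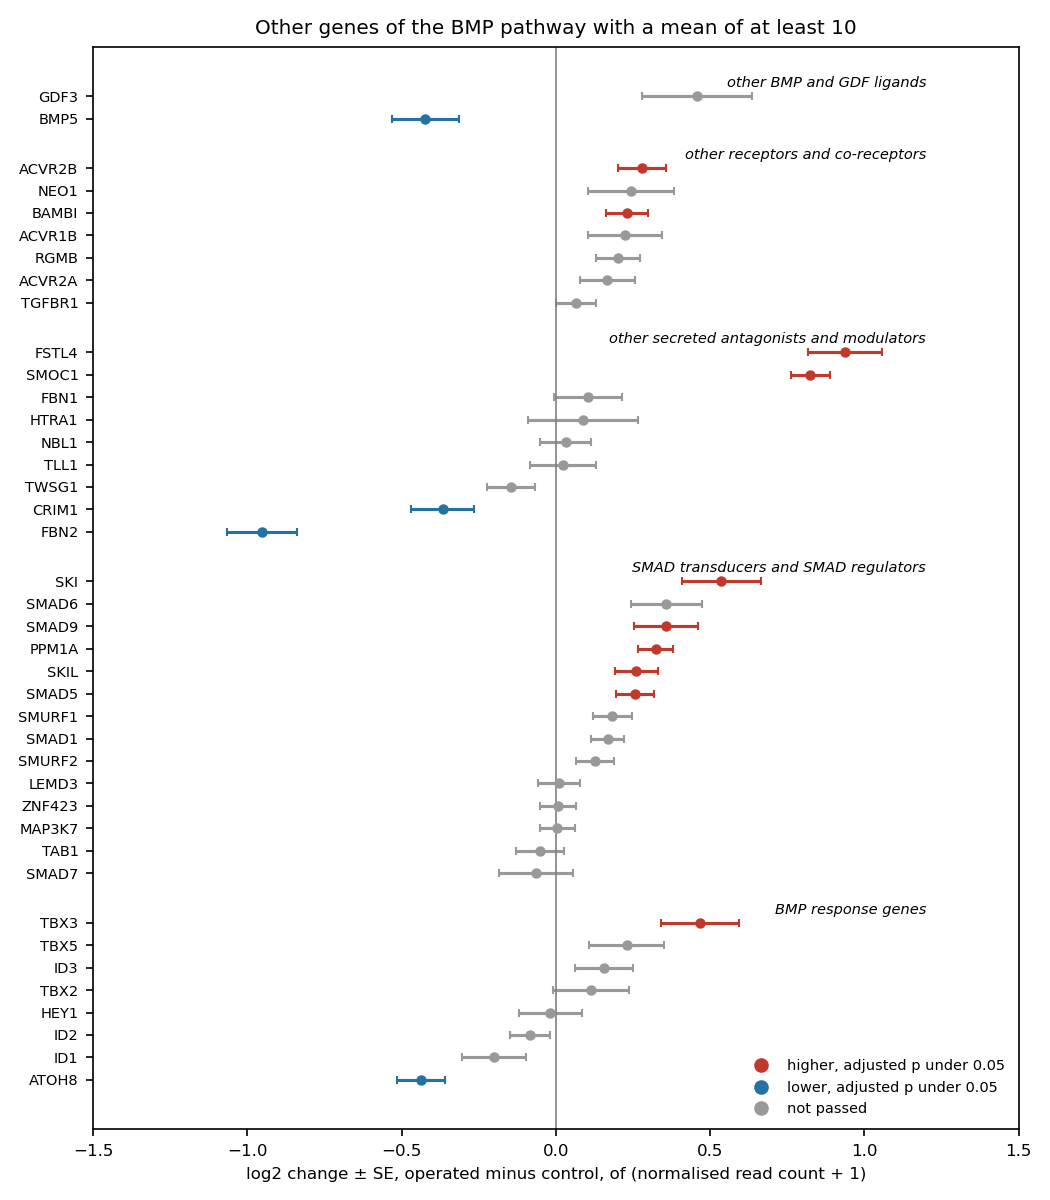
Log2 change ± SE (limma, operated minus control) of the 40 other pathway genes with a mean of at least 10, by role; a gene that stands in more than 1 list is drawn once. Genes called higher are red and those called lower blue: 5 SMAD transducers and regulators are red and none blue, while the secreted modulators hold 2 of each. Over all 9076 genes 10.6% were called higher and 12.3% lower.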

How the data were processed

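Polyadenylated RNA of 5 operated and 5 control retinas was sequenced from stranded libraries as paired-end reads, per the labels' protocols; the 10 libraries share 1 batch number. The authors deposited a signal, namely read counts after normalisation. The scaling, the annotation and the counting options are not given in the sources used here. Build GRCg6a is named in the submitters' processing notes, beside HISAT2 2.1.0, featureCounts, Subread 1.6.2, SAMtools 1.9, Trim Galore 0.6.4 and FastQC 0.11.8. Every gene exceeds 1 in at least 5 libraries.

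Between 89.9% and 91.6% of values up to 400 reads were whole reads within a tolerance of 0.01, so no count model was used. In the RefSeq annotation of GRCg7b the span of BMP2 overlaps 6 other genes, that of ACVR1 2 and that of BMPR2 1. Without a stated use of strand, reads from any shared exon cannot be told apart. Whether exons overlap was not tested, and the data were mapped to another build.

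Operated was tested against control with limma 3.58.1 (R 4.3.3) on log2(value + 1), with an intensity trend and the embryo as a block, two-sided, over genes with a mean of at least 10, with Benjamini-Hochberg adjustment; BMP2 and GDF6 come from the same fit without that filter. The titles pair both eyes of an embryo. Deviations from the group means correlated over genes by 0.306, 0.758, 0.454, 0.684 and 0.593 within embryos 1 to 5. In embryos 2 to 5 each eye correlated best with the other eye of its own embryo. In embryo 1 the operated retina correlated best with the control of embryo 4, and the control with the operated retina of embryo 4. The values thus did not single out the pair of embryo 1, which rests on the titles alone. Python 3.11.15 with pandas 2.3.3, numpy 2.4.6, scipy 1.17.1 and matplotlib 3.10.9 was used for tables and figures.

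The genes and lists were chosen with earlier results of these data known. All 10 genes are named, with up to 4 passing genes of each other list in order of p. BMP6, GDF11, BMPER, SMOC2, SMAD4, TOB1, SMURF1, ID1 to ID4, SMAD6, SMAD7, TBX2 and TBX5 were named after their values were seen. The alternatives were other pseudocounts, filters and scalings, no block, a robust prior, each embryo left out and 3 marker covariates. The 5 pairs are biological replicates. Poisson intervals cover counting error only.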

Additional observations from a re-analysis of the deposited data

Results flagged for a closer look

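Each of the 10 genes was screened for a single value far from the other 4 in its operated values, its control values and its within-embryo log2 changes, 30 screens in all, of which chance flags about 1 in 20. A single value stood out by this measure: BMPR1A had 115 in the control retina of embryo 4, against 103 to 106 in the control retinas of the other 4 embryos. The gap to the nearest value was 0.756 of the range, above the critical value of 0.71 for 5 samples.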

How the results depend on the processing

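The count of pathway members called higher was 2 in the main setting and 4 with no filter on low values, where BMP2 and GDF6 enter. It was 1 with a mean of at least 50 (where BMPR1B is not tested), with quantile normalisation and with no replicate block, 1 to 2 with an embryo left out, and 0 with the pigment, mesenchyme or red cell covariate, where 1, 2 and 2 had an unadjusted p under 0.05 by limma. With no filter the count of 4 became 2 with quantile normalisation, 2 to 3 with an embryo left out, and 0 (2 at an unadjusted p under 0.05), 1 and 2 with the 3 covariates; over all genes the no-filter fit called 1428 higher and 1262 lower, 1156 and 1347 with quantile normalisation, and 187 and 31, 427 and 166, and 684 and 531 with the covariates. By limma 0 members were called lower in each of these settings, with 0 at an unadjusted p under 0.05. Of the 86 other genes, 40 were tested in the main setting, with 10 higher and 4 lower. With a mean of at least 50 the counts were 5 and 0 (0 lower at an unadjusted p under 0.05). The 4 genes called lower, BMP5, CRIM1, FBN2 and ATOH8, average under 50 and were not tested there, so that 0 says nothing about them. With an embryo left out the counts were 3 to 13 and 2 to 3. They were 1 and 0, 2 and 1, and 4 and 2 with the pigment, mesenchyme and red cell covariates (in the pigment fit, 2 lower at an unadjusted p under 0.05). All genes gave 963 higher and 1112 lower in the main setting, and 412 and 814 with a mean of at least 50. They gave 858 and 1068 with quantile normalisation, and 701 and 783 with no replicate block. With an embryo left out they gave 381 to 1373 and 298 to 1470, highest without embryo 1 and lowest without embryo 4. With the covariates in that order they gave 100 and 16, 216 and 86, and 414 and 314. For the 86 other genes, the 13 called higher were also reached without embryo 1. Calls with no replicate block ended for BMPR1B, ACVR2B, BAMBI, FBN2, BMP6, BMPER, SMOC2, TOB1, SIPA1L1 and SMARCA2, and for no other gene named. Estimates near 0 changed sign without passing. ACVR1 (0.004) had -0.005 with trimmed means, -0.02 to 0.021 with an embryo left out (-0.008 without embryo 2), and -0.014, -0.006 and -0.007 with the covariates. BMP4 (0.058) had -0.021 with quantile normalisation, -0.027 without embryo 2 to 0.224 without embryo 5, and -0.183 with the red cell covariate. BMPR1A (-0.01) had -0.069 to 0.041 with an embryo left out (0.03 without embryo 2), and 0.086 with the red cell covariate. The cause of these shifts was not tested. Leaving out an embryo or adding a covariate also leaves fewer degrees of freedom. The marker levels also differed between the eyes of an embryo, so a covariate overlaps with the operation. With the pigment covariate the SE of CHRDL1 was 0.12, against 0.071 in the main setting, at log2 changes of 0.37 and 0.41. For BMP6 the log2 change itself went from -0.76 to -0.13 with that covariate. BMP2 and GDF6 had the fewest reads of the 10 genes, at 86 to 232 a library, and the part of depth in their results was not tested.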
